A study of Culex quinquefasciatus with 7 samples.

Results

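The genes described here are strong risers of the young adult mosquito: 334 of the 20305 genes in the table, which passed 50% of their log2 rise between 12 and 24 h after the adult emerged and stood at 20 FPKM or more at 72 h. They were chosen by their own values, the deposited FPKM (fragments per kilobase of a gene, relative to all mapped fragments of its library). A member had at least 20 FPKM at 72 h and a rise of at least 2 on the log2(FPKM + 1) scale (4-fold) at 72 h over 2 h. It had covered less than 50% of that log2 rise at 12 h and at least 50% at 24 h. The libraries at 2, 12, 24 and 72 h thus chose the members, and what they show is description without a test. The libraries at 36, 48 and 60 h played no part in the choice.

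The study followed females of Culex quinquefasciatus, the southern house mosquito, from just after eclosion, when the adult leaves the pupa, through the days before yolk is made. The 7 libraries were made at 2, 12, 24, 36, 48, 60 and 72 h, 1 per time, each from the whole bodies of 200 pooled adult females kept in cycles of 12 h light and 12 h dark. No treatment or genotype was contrasted, and age is the only difference between libraries that the labels give. From 12 h on the ages lie 12 h apart, so neighbouring libraries may also differ in time of day. In such steps age and time of day cannot be told apart. Because a library holds whole animals, more cells of a type and more RNA per cell cannot be told apart.

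A mosquito leaves the pupa sexually immature. In the days that follow, the new cuticle hardens, larval and pupal tissues are broken down or rebuilt, and the gut, fat body and ovaries become ready for a blood meal. In mosquitoes juvenile hormone drives much of this maturation, and yolk synthesis itself waits for blood. The table gives genes only by identifiers that begin with CPIJ and does not pair them with names, and 0 of the 18458 genes in the RefSeq table used here (assembly VPISU_Cqui_1.0_pri_paternal) carried such an identifier. No function is therefore assigned to any gene, no position or sequence is given, and pathway or cell type lists were not analysed here. The label of female whole body could not be checked against markers for the same reason.

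As a body, the 334 genes held 10.4% of all FPKM at 72 h, against 1.83% at 2 h. In the order of the 7 times, their summed FPKM made up 1.83%, 2.94%, 7.63%, 9.33%, 10.1%, 9.91% and 10.4% of the library. The share was low in the first 2 libraries and close to 10% in the last 3, with the largest step between 12 and 24 h. The median member stood at 5.06, 8.30, 21.7, 24.1, 32.5, 30.7 and 39.5 FPKM in the same order of times. From 48 h on all 334 were above 10 FPKM, against 87 at 2 h, when 17 were below 1 FPKM and 0 were listed at 0. A level of 1000 FPKM was reached by 14 members at 72 h, against 1 at 2 h.

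**Figure D1:**
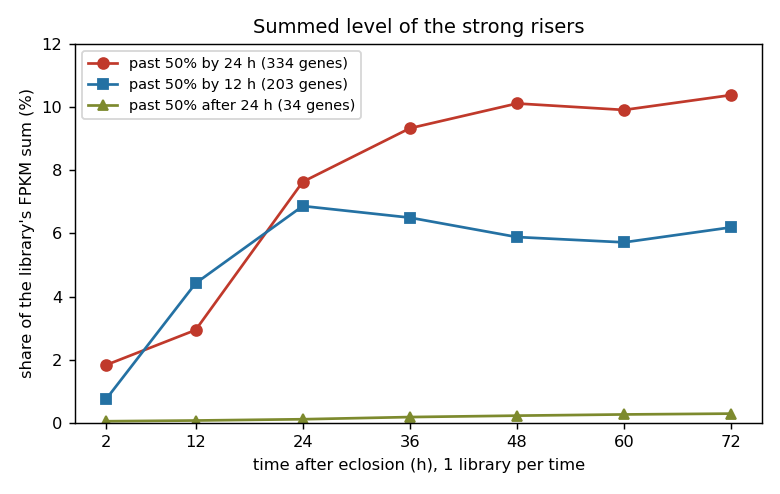
Share of each library's FPKM sum, in percent, held by 3 sets of strong risers against time after eclosion, 1 library per point. The 334 genes that passed 50% of their rise by 24 h (circles) stood at 10.4% at 72 h, against 1.83% at 2 h, the 203 that passed it by 12 h (squares) were highest at 24 h with 6.87%, and the 34 that passed it after 24 h (triangles) stayed at or below 0.291%.

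The sum was unevenly spread over the members. At 72 h the most abundant member held 13.9% of it, the 5 most abundant 31.9% and the 10 most abundant 45.5%. The same 5 held 31.0% of the sum at 12 h and 41.5% at 24 h, so they weigh heavily in its step between these times. CPIJ009303, the most abundant, stood at 1392, 2266, 4827, 5141, 6487, 7302 and 7157 FPKM from 2 to 72 h. It was higher in each library up to 60 h and slightly lower at 72 h, with a rise of 2.36 on the log2(FPKM + 1) scale. CPIJ007488, with 721, 913, 1651, 1844, 2385, 2607 and 2943 FPKM, was higher in every successive library, with a rise of 2.03. CPIJ009501, at 457, 560, 1330, 1129, 1669, 1418 and 1925 FPKM, was lower at 36 and 60 h than in the library before each. These 3 were already abundant at 2 h and had rises below the median of the set. After libraries were rescaled, as described next, their rises were 1.79, 1.46 and 1.5, below the limit of 2.

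The size of the rise differed widely among members. Its median was 2.49 on the log2(FPKM + 1) scale (5.61-fold), its quartiles 2.19 and 3.10, and its range 2.00 to 9.45. A rise of 3 or more was found in 92 members, of 4 or more in 41 and of 5 or more in 15, while 87 lay below 2.2, close to the limit. Libraries also shifted as a whole. By the median ratio over the 2761 genes that reached 10 FPKM in all 7 libraries, the 72 h library lay 0.57 (log2) above the 2 h library, and every rise given here contains that shift. Rescaling by that ratio lowers the rises and the 72 h levels. Genes below those limits could therefore not enter, and an overlap with the 334 is largely built in. After rescaling, 125 genes met the same rule, all of them among the 334, so 37.4% of the members were kept. Of the 209 that were not, 169 had a rescaled rise below 2. The median deposited rise was 2.25 in the 209 and 3.22 in the 125. The member with the largest rise among the 209 was CPIJ017414, with 6.22, which lay close to the limit at 12 h. Every rise of 5 or more is many times the shift.

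**Figure D2:**
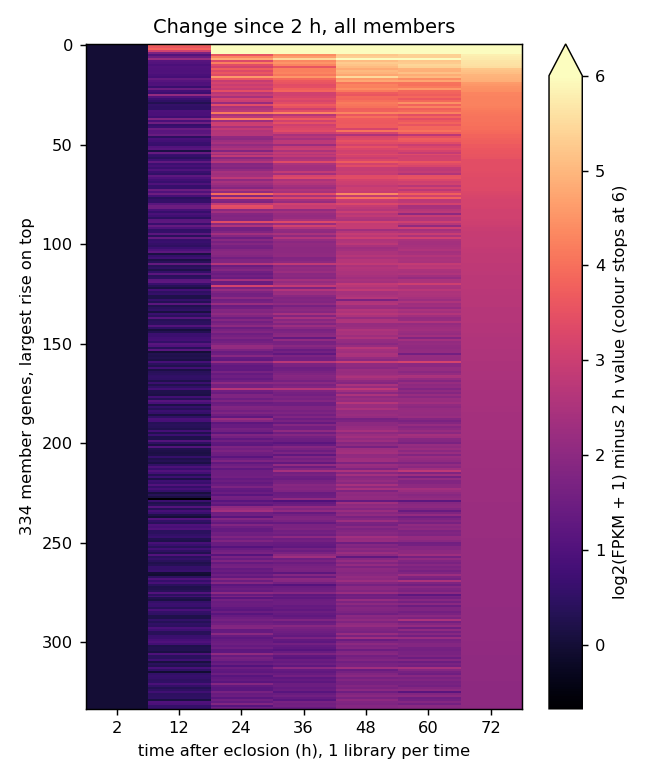
Change of log2(FPKM + 1) since 2 h in all 334 members (rows, largest rise on top) over the 7 libraries (columns, time after eclosion in h). Colour gives the log2 difference and stops at 6. The columns at 2 and 12 h are dark in nearly all rows, those from 24 h on are lighter, and at 72 h the top 15 rows are at 5 or more.

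The 12 to 24 h step was the largest of the 6 steps between neighbouring libraries in 276 members (82.6%), and the first step, from 2 to 12 h, was the largest in 52. In 210 members (62.9%) it exceeded both the change before 12 h and the whole change from 24 to 72 h, and the median member gained 43.8% of its rise in it. The FPKM at 24 h was at least 5 times that at 12 h in 38 members and at least 10 times in 9. At 24 h the members had covered a median of 65.9% of their rise (quartiles 59.2% and 73.5%), against 21.8% at 12 h (15.2% and 31.3%). Since the rule fixes which side of 50% these values fall on, they only describe how far from the limit the members lie. Within 10 percentage points of it were 90 members at 24 h and 43 at 12 h, so the set grades into the earlier and the later risers.

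Some neighbours of each limit show that grading. CPIJ017414 had covered 49.9% of its rise at 12 h and was a member, whereas CPIJ001096 had covered 50.1% and was not. CPIJ008394 stood at 50.1% at 24 h, just inside, and CPIJ005762 at 49.98%, just outside. For the level at 72 h the nearest pair was CPIJ006883, inside with 20.01 FPKM, and CPIJ002765, outside with 19.9 FPKM. For the size of the rise it was CPIJ010331, inside with 2.003, and CPIJ009366, outside with 1.996.

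Several of the largest rises had their largest log2 step between 12 and 24 h and a plateau or lower values afterwards. CPIJ005273 had 1.34, 35.3, 3613, 2948, 2690, 1358 and 1643 FPKM from 2 to 72 h. It was highest at 24 h, where it was 102 times its 12 h value, and its rise of 9.45 at 72 h over 2 h was the largest of the set. CPIJ000835 had 2.73, 52.0, 2104, 3726, 2106, 2398 and 1087 FPKM. It peaked at 36 h, at 3.43 times its 72 h value, and had a rise of 8.19. CPIJ015368 had 38.1, 130, 3335, 3556, 3449, 2598 and 2790 FPKM, a flat top from 24 to 48 h with lower values afterwards. CPIJ017414 had 0.147, 8.83, 181, 175, 232, 119 and 84.4 FPKM, with its highest value at 48 h. Because its 2 h value is far below 1 FPKM, its rise depends on the pseudocount: 6.22 with 1 and 8.42 with 0.1.

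In 14 members the 24 h value was above the 72 h value. Their rises had a median of 3.23, and 6 of them had a rise of 4 or more, against a median of 2.46 and 35 of 320 among the other members. A difference between these sets was not tested, since both were chosen on the same libraries.

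Other large rises were progressive. CPIJ007471 had 1.35, 27.9, 446, 656, 1210, 1264 and 1617 FPKM and was higher in every successive library, with a rise of 9.43. CPIJ016689 had 0.118, 1.31, 8.94, 12.2, 36.2, 45.0 and 51.5 FPKM, and its 72 h value was 2.40 above its 24 h value on the log2(FPKM + 1) scale, the widest such gap among members. CPIJ013738, with 0.608, 2.47, 14.9, 31.4, 52.8, 59.5 and 79.4 FPKM, and CPIJ009745, with 1.22, 3.62, 25.3, 45.8, 82.2, 89.8 and 123 FPKM, followed with gaps of 2.33 and 2.23. All 4 were past 50% of their log2 rise at 24 h with an FPKM of only 0.173 to 0.276 of that at 72 h, since the log2 scale counts each doubling alike. In all, 74 members were higher in every successive library.

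**Figure D3:**
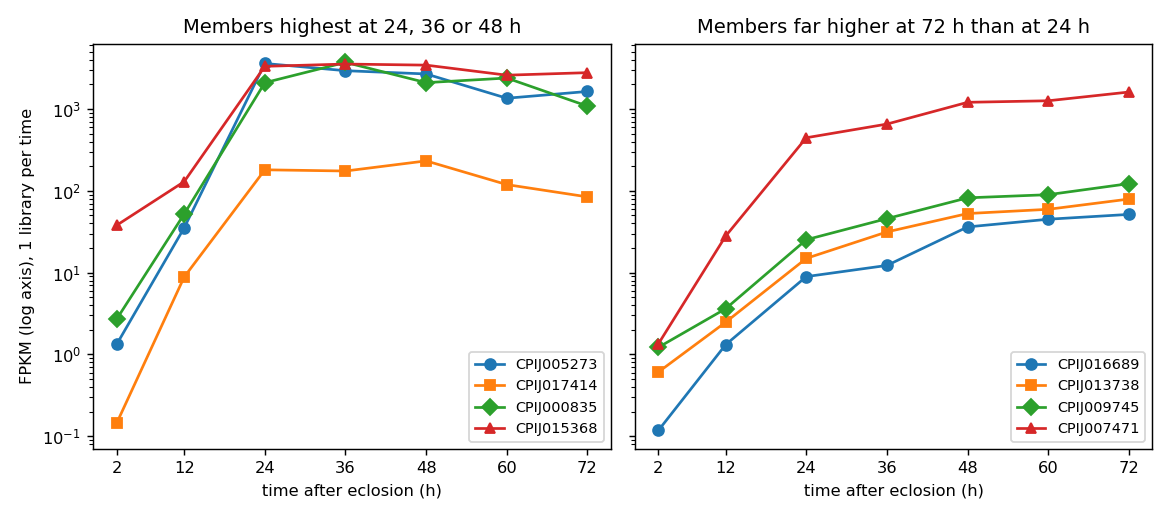
FPKM on a log axis against time after eclosion (h) for 8 members, 1 library per point. The left panel shows 4 members that were highest at 24, 36 or 48 h, among them CPIJ005273 at 3613 FPKM at 24 h, and the right panel 4 members that were highest at 72 h, among them CPIJ007471 at 1617 FPKM.

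Of the 334 members, 3 were lower at 12 h than at 2 h, and 28 after rescaling. CPIJ004961 had 17.9, 10.9, 54.4, 77.2, 78.5, 80.7 and 89.0 FPKM, and its 12 h value was 0.67 (log2) below its 2 h value, while every later value was above both. The others were CPIJ006132, lower by 0.042, and CPIJ014149, lower by 0.025. With 1 library per time, none of these 3 differences can be told from no change. The largest early gains were those of CPIJ005273 (3.95), CPIJ000835 (3.83) and CPIJ007471 (3.63), which also had the 3 largest rises at 72 h.

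The libraries at 36, 48 and 60 h show what the chosen genes did in samples that did not choose them. None was back at the starting level: the lowest value was 43.7% of the rise, and only CPIJ005329 and CPIJ006434 were below 50% in any of the 3 libraries, both at 36 h. These 2 are named for that reason, after their values were seen. The median part of the rise reached was 73.1% at 36 h (quartiles 67.3% and 80.2%), 90.5% at 48 h (85.3% and 96.2%) and 88.5% at 60 h (81.6% and 93.8%). In 243 members all 3 values were above the 24 h value, and in 202 of them all 3 also lay below the 72 h value. The highest of the 7 values was that of the 72 h library in 272 members, of the 60 h library in 21, of the 48 h library in 29, of the 36 h library in 5 and of the 24 h library in 7. After rescaling, the 72 h library held the highest value in 219 members and the 60 h library in 61.

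The nearest sets of strong risers, cut by the same limits on level and size, had other values at these times. The 203 genes that had passed 50% of their rise by 12 h stood at a median of 94.6%, 95.6% and 91.5% of it at 36, 48 and 60 h, and only 70 of them (34.5%) were highest at 72 h, against 272 of 334 members (81.4%). The 34 genes that passed 50% after 24 h stood at 66.1%, 84.0% and 84.8%, and 30 of them (88.2%) were highest at 72 h. These sets are divided by the same libraries at 2, 12, 24 and 72 h, so the differences were not tested. At 60 h the medians of the 3 sets lay between 84.8% and 91.5%.

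**Figure D4:**
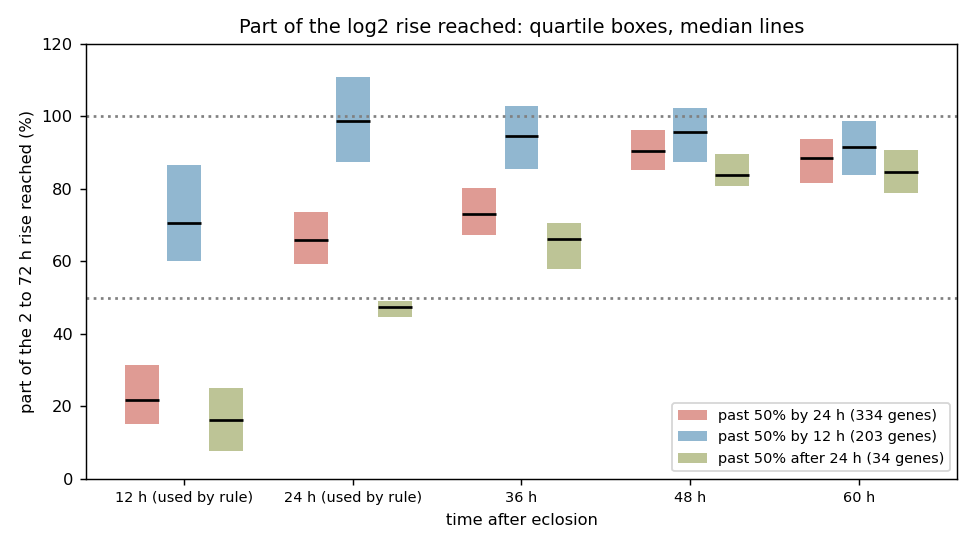
Part of the log2 rise from 2 to 72 h reached at each time, in percent, for 3 sets of strong risers. Boxes run between the quartiles over genes and lines mark the medians. The members (left box of each time) stood at medians of 73.1%, 90.5% and 88.5% at 36, 48 and 60 h, the times the choice did not use.

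Between 36 and 60 h most members still gained. At 60 h 307 of 334 (91.9%) were higher than at 36 h, by a median of 0.40 on the log2(FPKM + 1) scale (quartiles 0.23 and 0.53), against 4844 of the 8105 genes that reached 5 FPKM at 36 or 60 h (59.8%) and a median of 0.08. Rescaling left this at 306 of 334 members and 0.39. It could hardly do otherwise, since the 36 and 60 h libraries lay 0.40 and 0.41 (log2) above the 2 h library. Of the risers by 12 h, 78 of 203 (38.4%) were higher at 60 h than at 36 h, with a median difference of -0.09. Of the risers after 24 h, all 33 that reached 5 FPKM in either library were higher, with a median of 0.46. Since 320 of the members had a lower value at 24 h than at 72 h, an upward course in between may follow from the choice of members, which was not tested. By the size of the rise, the median gain was 0.33 in the 169 with a rise under 2.5, 0.43 in the 73 up to 3, 0.49 in the 51 up to 4 and 0.66 in the 41 at 4 or more. The gain is a part of the rise that sorts these groups, so this order may follow from the sorting, which was not tested. As a part of the rise, the group medians at 36 and 60 h were 70.3% and 85.0% under 2.5, and 80.5% and 93.9% at 4 or more. Of both steps, the first was the larger: 313 members were higher at 48 h than at 36 h (median difference 0.45), whereas 123 were higher at 60 h than at 48 h (median difference -0.07). The medians over all genes that reached 5 FPKM in either library of a step had the same signs, 0.18 and -0.10. After rescaling the step to 60 h changed sign in the members: 188 were higher at 60 h than at 48 h, with a median difference of 0.03, and the step to 48 h kept a median of 0.34.

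Differences of 2-fold between 60 and 36 h were rare. At least 2-fold higher at 60 h were 5 members (1.5%), against 0.444% of the 8105 genes, and at least 2-fold lower were 2 members (0.599%), against 0.851%. With 1 library per time these are sizes without a test.

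**Figure D5:**
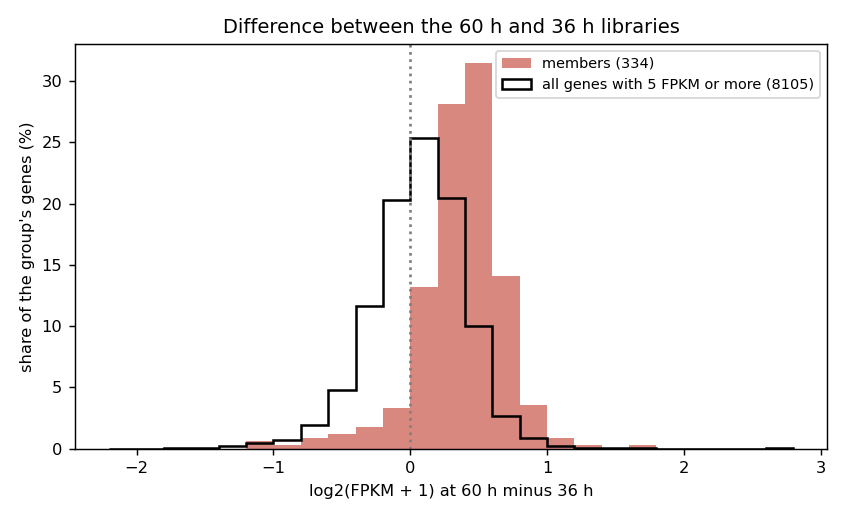
Distribution of the log2(FPKM + 1) difference, 60 h minus 36 h, among the 334 members (filled) and among the 8105 genes that reached 5 FPKM in either library (outline), in percent of each group per bin of 0.2. The members centre at 0.40 and all genes at 0.08.

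A slope on time was tested over the libraries at 36, 48 and 60 h with limma on all 11809 genes whose mean there reached 1 FPKM. Calls were made at a Benjamini-Hochberg adjusted p under 0.05 over all these genes. All 334 members entered. Rising slopes were called in 7 members (2.10%), against 0.279% of all genes tested, and a falling slope in 1 (0.299%), against 0.440%. The steepest rising slopes were those of CPIJ016689, 1.795 ± 0.308 per 24 h on the log2 scale (standard error, 3 libraries, limma adjusted p = 9.5e-06), CPIJ006435, 1.30 ± 0.30 (limma adjusted p = 0.0038), and CPIJ010739, 1.14 ± 0.28 (limma adjusted p = 0.0099). CPIJ006435 had 4.04, 8.43, 19.3, 26.4, 48.5, 66.7 and 68.5 FPKM from 2 to 72 h, and CPIJ010739 3.43, 7.43, 45.9, 86.1, 160, 191 and 215 FPKM. The member called as falling was CPIJ005273, with a slope of -1.12 ± 0.22 (limma adjusted p = 0.00029). After rescaling 0 members were called in either direction by limma, with 81 rising and 6 falling at an unadjusted p under 0.05, so no call was kept under that scaling. The slopes of the 8 called members changed by at most 0.0094 with it, and the median standard error over the members was 0.226 after rescaling and 0.307 with the deposited values. The fit has 1 residual degree of freedom. Its residual is how far the 3 libraries, 1 per age, lie off a straight line. Noise and a curved course therefore cannot be told apart. The standard errors and limma p-values do not measure the spread between pools of the same age. With the deposited values limma gave all weight to a spread shared by genes of like level (infinite prior degrees of freedom), and after rescaling the prior degrees of freedom were 7.36. A gene lying further off its line than that spread could therefore be called.

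Some members had successive identifiers, a property the choice did not use. Of the 334, 44 (13.2%) had a member at the next number, in 21 runs, 2 of them of 3 genes and 19 of 2. Among the 174 genes with at least 20 FPKM at 72 h whose number adjoins that of a member, 25.3% were members, against 10.9% of the 3071 genes at that level. The corresponding figures with a set member at the next number were 36 of 203 (17.7%) for the risers by 12 h and 4 of 34 (11.8%) for those after 24 h, so such runs are seen in the other riser sets as well. Successive numbers need not be neighbours on a chromosome, and positions were not used here.

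Some runs had closely parallel courses. CPIJ014268 had 1.78, 6.78, 27.8, 20.8, 18.6, 14.3 and 23.7 FPKM and CPIJ014269 2.51, 8.76, 37.5, 26.1, 25.4, 18.1 and 30.8 FPKM, so both peaked at 24 h, declined to 60 h and were higher again at 72 h, with rises of 3.15 and 3.18. CPIJ007710 and CPIJ007711 had 45.7 and 74.5 FPKM at 72 h, against 0.303 and 1.04 FPKM at 2 h, with rises of 5.16 and 5.21. The run CPIJ009242, CPIJ009243 and CPIJ009244 differed in level, at 297, 31.3 and 22.2 FPKM at 72 h, but had rises of 2.12, 2.26 and 2.24. The run CPIJ002457, CPIJ002458 and CPIJ002459, at 21.4, 32.4 and 92.4 FPKM at 72 h, had rises of 2.44, 2.64 and 2.41. Other runs were unequal: CPIJ003982 had a rise of 4.29, with 687 FPKM at 72 h against 34.2 FPKM at 2 h, and CPIJ003983 a rise of 2.02, with 151 FPKM at 72 h against 36.6 FPKM at 2 h. The first 2 pairs and the last were picked after their values were seen. The handling of reads shared by similar genes was not given in the sources used here, so values of adjoining genes that resemble each other in sequence are uncertain.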

How the data were processed

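Whole adult females were sequenced as messenger RNA, 1 library per time, from pools of 200 animals. The deposited values were read as FPKM made by the authors with TopHat, Cufflinks and Cuffdiff after CASAVA 1.8 and Trimmomatic, per the submitters' processing notes; per the file headers only gene and hour are named. The genome build, annotation, strand use, handling of shared reads and scaling of libraries were not given in the sources used here. From steps among values below 0.3 FPKM, depths relative to the 2 h library were 0.744 to 1.19; the absolute depth is unknown, and no counting interval is given.

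The members, gene lists and tests were chosen with earlier results of these data known. All values were taken as log2(FPKM + 1), which understates changes of low genes. Slopes over 36, 48 and 60 h used limma 3.58.1 in R 4.3.3 (lmFit, eBayes with a mean-dependent prior, Benjamini-Hochberg); Python 3.11.15, numpy 2.4.6, pandas 2.3.3 and matplotlib 3.10.9 did the rest. Genes given individually are, among members, those with the largest rise, highest 72 h level, largest gaps between 24 and 72 h, extreme 12 h change, steepest called slopes, longest identifier runs and those nearest each limit; others are named as picked after their values were seen. Alternatives were rescaling by the median ratio, a pseudocount of 0.1, other minimum values and limits, a constant prior, leaving out the most abundant member, and wider identifier gaps. The planned gene lists were not run, since no identifier matched a name.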

Additional observations from a re-analysis of the deposited data

How the results depend on the processing

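The rule gave 334 genes with the deposited values and 125 after rescaling. Of the 209 members lost by rescaling, 169 had a rescaled rise below 2, and the others failed another limit. A minimum of 10 FPKM at 72 h let in more genes, 518, and a minimum of 40 FPKM fewer, 166. With a pseudocount of 0.1 (395) or 40% (321) or 60% (293) of the rise the count stayed within 1.5 times, and 331, 291 and 244 of the 334 members were kept. The slope calls from 36 to 60 h, 7 rising and 1 falling, were 0 and 0 after rescaling and 2 and 0 with a constant prior. Falling calls were 2 with no minimum and 2 with a minimum mean of 10 FPKM. The slopes of the 8 called members changed by at most 0.0094 with rescaling. The prior degrees of freedom were 7.36 with it and infinite without. The cause of these changes in calls was not tested. The 4 slopes named kept their sign after rescaling and with a pseudocount of 0.1. Rescaling moved them by at most 0.0094, and a pseudocount does not change whether 60 h lies above 36 h, so neither could change a sign. The other minimum values and the constant prior leave a slope as it is, so they cannot change its sign. All 4 lost their call after rescaling and 2 with a constant prior. The library with the highest value was that at 36 h in 8 members after rescaling, against 5, and that at 60 h in 61, against 21. Members with another within 5 identifiers numbered 91, against 44 at the next number. The 2-fold counts between 60 and 36 h, the median parts of the rise and the shares of the library (without the most abundant member) stayed within 1.5 times under the alternatives run. Rescaling could hardly change these 2-fold counts, since the 36 and 60 h libraries shift almost alike. For the 25 members not picked after their values were seen, 6 of 50 alternative rises moved by over 1.5-fold. All 6 were with a pseudocount of 0.1. Rescaling could not move a rise that far, since the whole shift of the 72 h library over the 2 h library, 0.57 (log2), is under 1.5-fold. None of the 50 changed sign, which neither alternative could do to a rise of at least 2. After rescaling 16 of these 25 no longer met the rule, 14 of them with a rise below 2. The members picked after their values were seen are not in these counts. No time has a second library, so no replicate could be left out, and dropping 1 of the 3 libraries would leave the slope no residual degrees of freedom. No paired analysis was possible because the series has 1 library for every time. The lowest values, at 2 h, are those that depth limits most.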

Other observations

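The 48 h library stood above both the 36 h and the 60 h library in 201 of 334 members (60.2%), against 4508 of 8395 genes with at least 5 FPKM in any of the 3 libraries (53.7%). After rescaling this was 136 of 334 members (40.7%), against 2874 of 8193 genes (35.1%). Values rising over both steps were found in 112 members (33.5%), against 20.1% of all genes, and after rescaling in 158 (47.3%), against 25.3%. These counts have no test, since each time has 1 library.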
